A study of Mus musculus with 9 samples.

Results

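The genes described here encode interleukin-10 and interleukin-22 (Il10, Il22), the soluble IL-22 binding protein (Il22ra2) and the chains of the IL-10 receptor (Il10ra, Il10rb). They were chosen by symbol, and the lymphoma and wild-type differences of those measured were already known. On the array 18193 genes have a probe set of their own. Of the 5 genes, 4 had probe sets filed under their symbol alone, 7 in all: 1 each for Il22ra2 and Il10, 3 for Il10ra and 2 for Il10rb. Il22 had none, because its only probe set is filed jointly with its near-copy Iltifb, so Il22 itself was not analysed here. Because the lymphoma contrast was known when the genes were chosen, their differences are given as a description, with no p-value, and nothing is read from how many passed a threshold.

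The samples were frozen spleen tissue in 4 wild-type samples labelled as healthy controls and 5 splenic lymphomas from Sca1-MALT1 transgenic mice, each measured on 1 Affymetrix array. The name of the transgene places MALT1, a protease and scaffold of antigen receptor signalling, under control elements of Sca1 (Ly6a), a gene of blood stem and progenitor cells; the sources used here do not give strain, age or founder line. The tissue is whole spleen, so a lower signal from fewer cells of a type and one from less RNA per cell cannot be told apart. The labels number the samples but name no animals, and p-values here refer only to the spread among these arrays. The 3 Malt1 probe sets differed by -0.74 to -0.55 on the log2 scale with 0 called by limma, and whether they detect the transgene is not known here, so they do not check the labels.

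IL-10 is a cytokine that restrains macrophages and dendritic cells and helps B cells survive and become plasma cells. It binds the IL-10 receptor alpha chain and then the beta chain, which engage the kinases Jak1 and Tyk2 and the transcription factor Stat3. IL-22 is made by innate lymphoid cells and helper T cells, acts on epithelium through Il22ra1 paired with the same beta chain, and is neutralised by Il22ra2, which has no membrane anchor and in lymphoid tissue is made mainly by dendritic cells.

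Il10, the ligand, was higher in every lymphoma than in any wild-type spleen. On its probe set (1450330_at) the wild-type spleens stood at log2 levels of 5.38, 5.21, 5.31 and 5.49, and lymphomas 1 to 5 at 8.12, 6.38, 7.45, 6.29 and 6.88. The 4 wild-type values lay close together and the lymphomas spread over almost 2 log2 units, with lymphoma 1 highest and lymphomas 2 and 4 lowest. The group means were 5.35 ± 0.12 (SD, n = 4) and 7.02 ± 0.77 (SD, n = 5), a log2 difference of 1.68 with a standard error (SE) of 0.34 and a 95% interval of 0.92 to 2.43.

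That difference, 3.20-fold, starts from a level at which an array reads little. As a yardstick for a dim probe set, the 95th percentile of the mean levels of 44 olfactory receptor probe sets was used, which lay at 6.18. All 4 wild-type values of Il10 fell under it and all 5 lymphoma values above it. RMA compresses differences near the background.

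Il22ra2, the soluble receptor that keeps IL-22 from its cell-bound receptor, differed in the opposite direction. Its probe set (1437665_at) read 9.56, 9.61, 9.30 and 9.18 in the wild-type spleens and 6.62, 6.85, 7.73, 7.15 and 6.49 in lymphomas 1 to 5. Every lymphoma lay below every wild-type spleen, with lymphoma 3 nearest to them and lymphoma 5 farthest. The means were 9.41 ± 0.20 (SD, n = 4) and 6.97 ± 0.49 (SD, n = 5), so the level was 5.44-fold lower in lymphoma (log2 difference -2.44, SE 0.23, 95% interval -2.97 to -1.92). All 9 values stayed above the dim level.

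Il10ra encodes the chain that binds IL-10 itself. Its brightest probe set (1448731_at) read 9.45, 9.74, 10.17 and 10.13 in the wild-type spleens and 9.39, 9.09, 9.57, 9.47 and 9.96 in lymphomas 1 to 5. The groups overlapped, with lymphomas 1 and 2 below the wild-type range, and differed by -0.38 (SE 0.19, 95% interval -0.81 to 0.058). A dimmer Il10ra probe set (1437808_x_at) differed by -0.29 (SE 0.16), with 4 of 5 lymphomas below the wild-type range of 6.60 to 7.18 and lymphoma 5, at 6.99, inside it. The third (1456173_at) stayed below the dim level on all 9 arrays, between 4.69 and 5.39, and differed by -0.048.

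Il10rb encodes the beta chain that the receptors for IL-10 and IL-22 share. Its 2 probe sets gave unlike values. The brighter one (1419455_at) read 10.65, 10.54, 10.74 and 10.74 in the wild-type spleens and 10.31, 10.52, 10.93, 10.74 and 10.71 in lymphomas 1 to 5, a difference of -0.029 (SE 0.12, 95% interval -0.30 to 0.24). The other (1429959_at) read 9.41, 9.42, 9.58 and 8.99 against 8.50, 8.51, 9.06, 9.23 and 9.10, a difference of -0.47 (SE 0.19, 95% interval -0.89 to -0.055). Lymphomas 1 and 2 were the lowest lymphomas on both, and on both the groups overlapped.

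Set side by side, the 7 probe sets fell into 1 higher (Il10), 1 lower (Il22ra2) and 5 receptor probe sets whose groups overlapped. The groups did not overlap for 2 of 7, where 6.47% of all 45037 probe sets did not (2.39% with lymphoma higher and 4.08% with lymphoma lower). By limma, which fits 1 model per probe set and shares the estimate of spread, 1 of 7 (Il22ra2, lower) had an adjusted p under 0.05, as did 0.486% of all probe sets (0.235% lower). These contrasts chose the genes. Among 18193 genes Il22ra2 had the fifth largest fall in mean and Il10 was number 57 by rise, a rank that rests on wild-type values below the dim level.

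**Figure D1:**
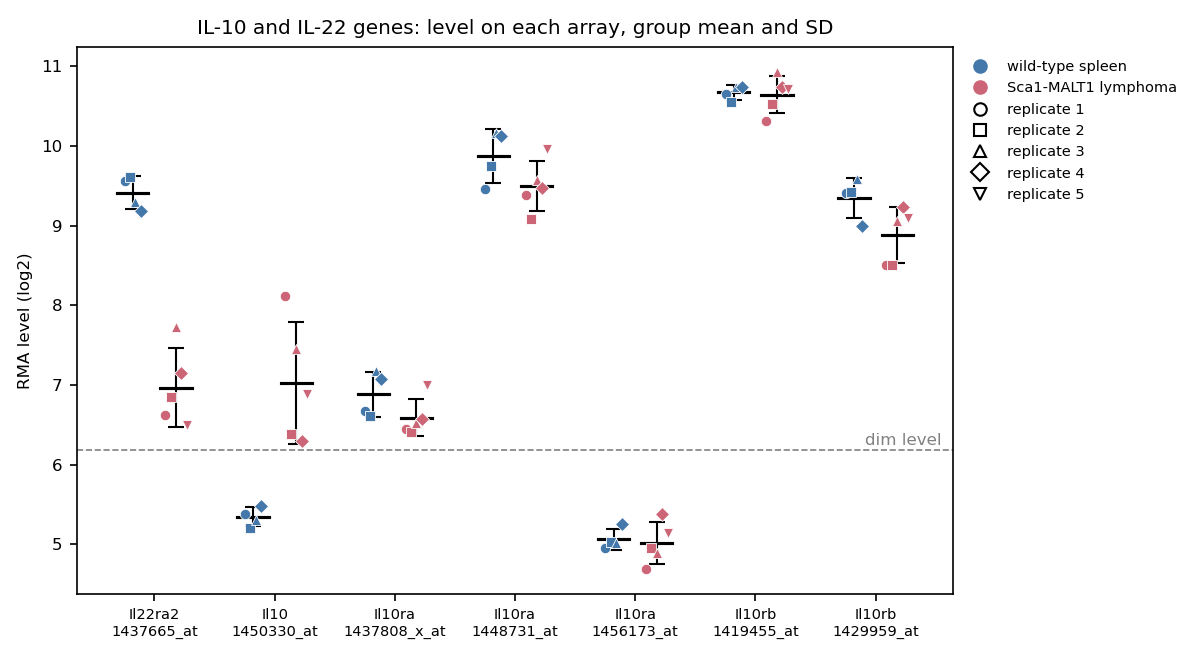
The plot shows the RMA level (log2) of each of the 7 probe sets on each array, blue for wild-type spleens and red for lymphomas, with marker shape for the replicate number, a bar for the group mean and whiskers for 1 SD; the dashed line is the dim level of 6.18. Il22ra2 is lower in all 5 lymphomas, Il10 is higher in all 5 and crosses the dashed line, and the groups overlap for the receptor chains.

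The size of the Il22ra2 and Il10 differences was read again with arrays that stand apart left out. The groups did not overlap for either gene, so leaving arrays out could not change the direction. Lymphomas 1 and 2 had the highest mean level of erythroid marker genes (11.14 and 10.82, against up to 8.38 elsewhere) and lymphomas 3 and 5 had low Xist (7.92 and 7.15, against 13.69 or more on the other arrays). Xist is the transcript of the inactive X chromosome in female cells, so the groups differed in their share of Xist-low arrays (2 of 5 lymphomas and 0 of 4 wild-type spleens); the labels used here do not give sex. Without lymphomas 1 and 2 the difference was -2.29 for Il22ra2 and 1.53 for Il10. Without lymphomas 3 and 5 it was -2.54 for Il22ra2 and 1.58 for Il10. With any single array left out Il22ra2 stayed between -2.64 and -2.33 and Il10 between 1.40 (without lymphoma 1) and 1.86. The small differences of 2 receptor probe sets turned: without lymphomas 1 and 2, Il10rb 1419455_at stood at 0.12 and Il10ra 1456173_at at 0.080. The larger receptor differences shrank there, for Il10rb 1429959_at from -0.47 to -0.22. Il10ra 1448731_at went from -0.38 to -0.21 and Il10ra 1437808_x_at from -0.29 to -0.18. Without lymphomas 3 and 5 these probe sets stood at -0.60, -0.56 and -0.41.

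The genes with the profile most like that of Il22ra2 were sought over all genes. Since the group difference makes up most of its profile, genes chosen this way are lower in lymphoma by the choice itself. Likeness was measured as the root mean square difference between profiles over the 9 arrays, each taken relative to its own mean, and the median over all genes was 1.27 log2 units from Il22ra2. The nearest was the calcium channel gene Ryr3 at 0.30, which stood at 10.02 ± 0.07 (SD, n = 4) in wild-type and 7.59 ± 0.66 (SD, n = 5) in lymphoma. It was followed by the lysosomal ion channel gene Mcoln3 (0.49), the serpin gene Serpinb7 (0.52), the marginal zone macrophage scavenger receptor gene Marco (0.56) and Adam23 (0.56).

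For Il10 the nearest was Arg2, the mitochondrial arginase, at a distance of 0.27 log2 units against a median of 0.998 over all genes. Arg2 read 5.02, 5.02, 5.04 and 4.99 in the wild-type spleens, all below the dim level, and 7.25, 5.90, 6.50, 6.18 and 6.51 in lymphomas 1 to 5. The protease inhibitor gene A2m (0.32), the growth factor gene Pdgfc (0.34), the endocytic receptor gene Lrp1 (0.38) and the antithrombin gene Serpinc1 (0.40) came next. In all 5, as in Il10, lymphoma 1 had the highest value. These genes too were chosen for likeness to the member, so higher lymphoma values and a high lymphoma 1 follow largely from the choice.

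**Figure D2:**
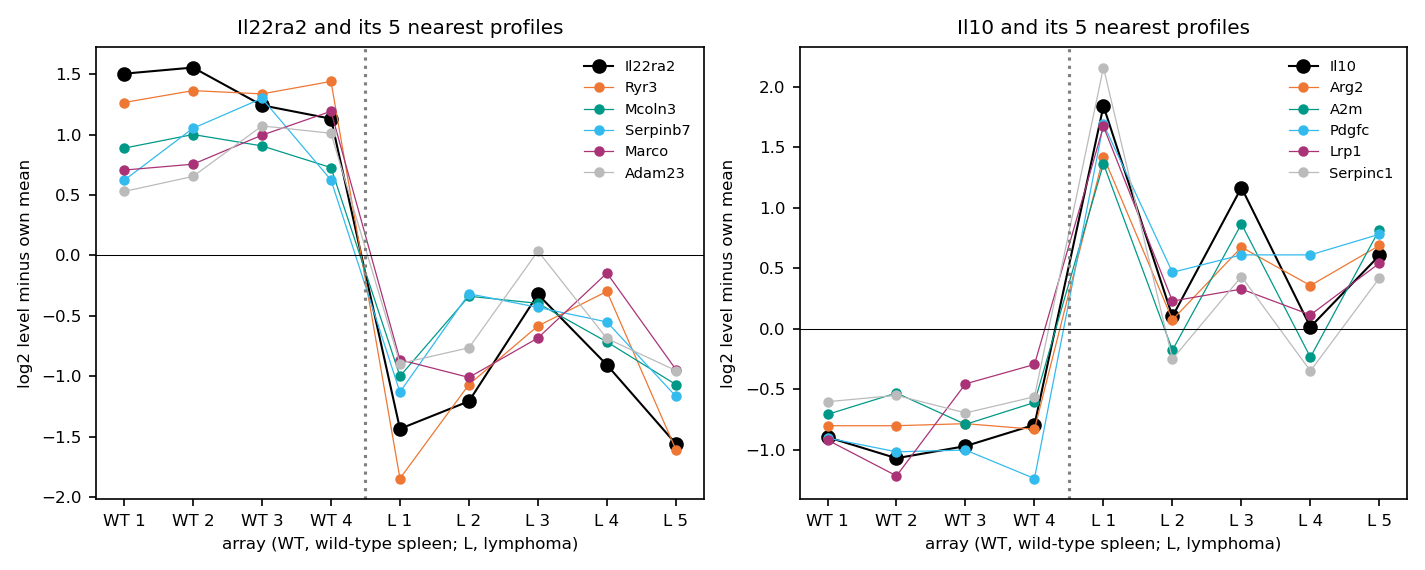
Each panel plots log2 level minus the gene's own mean over the 9 arrays, for Il22ra2 (left, black) or Il10 (right, black) and the 5 genes nearest to it; the thin lines only join the points of a gene, since arrays have no order. The lymphomas lie below the wild-type spleens on the left and above them on the right, and lymphoma 1 is the highest point of every gene on the right. The genes were chosen for this likeness, so the shared pattern follows largely from the choice.

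The other genes of the axis were described from 8 pathway lists with 79 distinct genes, of which 73 had a probe set of their own. At a limma adjusted p under 0.05, 1 of the 73 rose and 0 fell (1.37%), where 0.715% of all genes were called (0.407% higher and 0.308% lower). Over all genes 14.7% had an unadjusted p under 0.05 (6.69% higher and 8% lower). The one that rose was Hmox1, the haem-degrading enzyme, which IL-10 induces in macrophages and which red pulp macrophages use to recycle haem. With array weights limma called 4 of these genes (Hmox1, Maf, Nfil3 and Socs3, all higher), and the unequal-variance test called 0. Over all genes these settings called 532 and 0, against 130 in the main fit. With the replicate number as a block, 0 of the pathway genes were called (7 over all genes). It was also 0 with the erythroid level (98 over all genes) or the 18S ribosomal RNA control level (14) as a covariate. The 18S level was 12.15 to 12.37 in wild-type and 12.68, 13.37, 12.18, 12.63 and 12.86 in lymphomas 1 to 5. This covariate thus partly follows the group contrast.

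The other IL-10 family cytokines with a probe set were Il20 and Il24, which signal to epithelium. They differed by 0.066 (-0.069 without wild-type spleen 3) and 0.060 (-0.019 without the same array, -0.013 without lymphoma 5), and neither passed (0 of 2 called). Il24 was below the dim level on all 9 arrays. Among 9 other class II cytokine receptors, the family to which the IL-10 and IL-22 receptors belong, limma called 0, with 1 (Ifnar1, lower) at an unadjusted p under 0.05. The median difference was 0.040, against 0.0012 over all genes. Ifnar1, a chain of the type I interferon receptor, stood at -0.45 (limma adjusted p 0.276) and Il20rb, a chain shared by several receptors of the family, at 0.29 (0.493, with all values below the dim level). Il22ra1, the cell-bound chain that IL-22 needs, read 4.67 to 4.92 in wild-type and 4.82 to 4.97 in lymphoma, below the dim level on all 9 arrays.

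The relay from receptor to nucleus showed no called gene either (0 of 7, 1 higher at an unadjusted p under 0.05, median difference -0.0086). The kinase genes Jak1 and Tyk2 differed by -0.24 and -0.094 and Stat3 by 0.17, with limma adjusted p between 0.623 and 0.659. For Jak1 the sign turned without lymphomas 1 and 2 (0.016), and for Stat3 without lymphomas 3 and 5 (-0.0031). Socs3, the feedback inhibitor that Stat3 induces, read 10.10, 9.86, 9.97 and 9.87 in wild-type and 10.66, 9.92, 10.90, 10.68 and 11.53 in lymphomas 1 to 5. Lymphoma 2 alone lay within the wild-type range. The difference of 0.78 (SE 0.26, limma adjusted p 0.217) did not pass with all arrays. It passed without lymphoma 2, the lymphoma nearest to wild-type (0.99, limma adjusted p 0.0379). In that fit 328 of all genes were called, against 130 with all arrays.

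Genes that IL-10 induces in macrophages were mixed. Hmox1 rose and the remaining 12 of 13 did not pass. Counted by an unadjusted p under 0.05, 6 were higher and 1 was lower, with a median difference of 0.14. Hmox1 read 8.81, 8.70, 8.81 and 8.81 in the wild-type spleens and 10.85, 10.26, 9.87, 11.21 and 9.85 in lymphomas 1 to 5. All 5 lymphomas were above the wild-type spleens, by a log2 difference of 1.63 (SE 0.27, limma adjusted p 0.0361). Its call was lost without wild-type spleen 1 (adjusted p 0.124), 2 (0.147), 3 (0.131) or 4 (0.118) or lymphoma 5 (0.0508), and its difference then lay between 1.60 and 1.77. Of the members that did not pass, the haemoglobin scavenger receptor gene Cd163 stood at 1.09 (limma adjusted p 0.270), Nfil3 at 0.84 (0.110) and the tristetraprolin gene Zfp36, whose product destabilises cytokine mRNAs, at -0.62 (0.370).

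Fcgr1, the high-affinity IgG receptor gene, depended on the probe set. Its brighter probe set, used for the gene, differed by 0.14, and its other probe set (1417876_at) by 1.37, from 5.36 to 6.73 (limma adjusted p 0.0413 over all probe sets). That second value was looked up after the first was seen, and its wild-type mean is below the dim level.

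Among genes that IL-10 represses limma called 0 of 17. By unadjusted p under 0.05, 4 of them were higher in lymphoma (Il1a, Ccl3, Csf2 and Cxcl1) and 0 were lower. The median difference was 0.26. Il1a, Ccl3 and Csf2 had means below the dim level, so their rises lie near background. The chemokine gene Ccl3 read 5.42 to 5.97 in wild-type, all below the dim level, and 5.98 to 7.13 in lymphoma (difference 0.75, limma adjusted p 0.165). The costimulatory gene Cd80 stood at 0.67 (adjusted p 0.525), with lymphoma 2 highest at 9.42. Tnf differed by -0.20 (adjusted p 0.569). Il12b, whose product is shared by IL-12 and IL-23, differed by -0.38. Il23a, for the other chain of IL-23, differed by -0.048 and Il12a, for the other chain of IL-12, by 0.28. Of the 17 genes 9 had a mean below the dim level, among them Il6, Il12b and Il23a, a level at which a fall is hard to read.

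Among genes known as IL-22 targets in epithelium limma called 0 of 13. The intestinal lectins Reg3b, Reg3g and Reg1, which epithelial cells make in response to IL-22, stood below the dim level on all 9 arrays and differed by -0.095, 0.095 and 0.0084. The genes with large differences, S100a9 (3.41), Lcn2 (3.15), S100a8 (3.04) and Hp (2.75), are also made by neutrophils. S100a9 read 6.57 to 8.04 in wild-type and 14.26, 10.57, 9.47, 8.07 and 10.90 in lymphomas 1 to 5. Of the remaining members the acute phase genes Saa3, Saa1, Lbp and Saa2 stood at 1.38, 0.78, 0.67 and 0.33, the mucin gene Muc1 at 0.20 and Fut2 at -0.037. By unadjusted p under 0.05 there were 5 higher and 0 lower. The adjusted p of S100a9 and Lcn2 was 0.178 and 0.268. The level of the neutrophil marker list, meaning the mean log2 level of its 9 measured genes, was 6.83 to 7.45 in wild-type and 12.25, 9.21, 8.47, 7.18 and 9.23 in lymphomas 1 to 5. S100a8 and S100a9 are in that list too, and its part in these values was not tested.

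**Figure D3:**
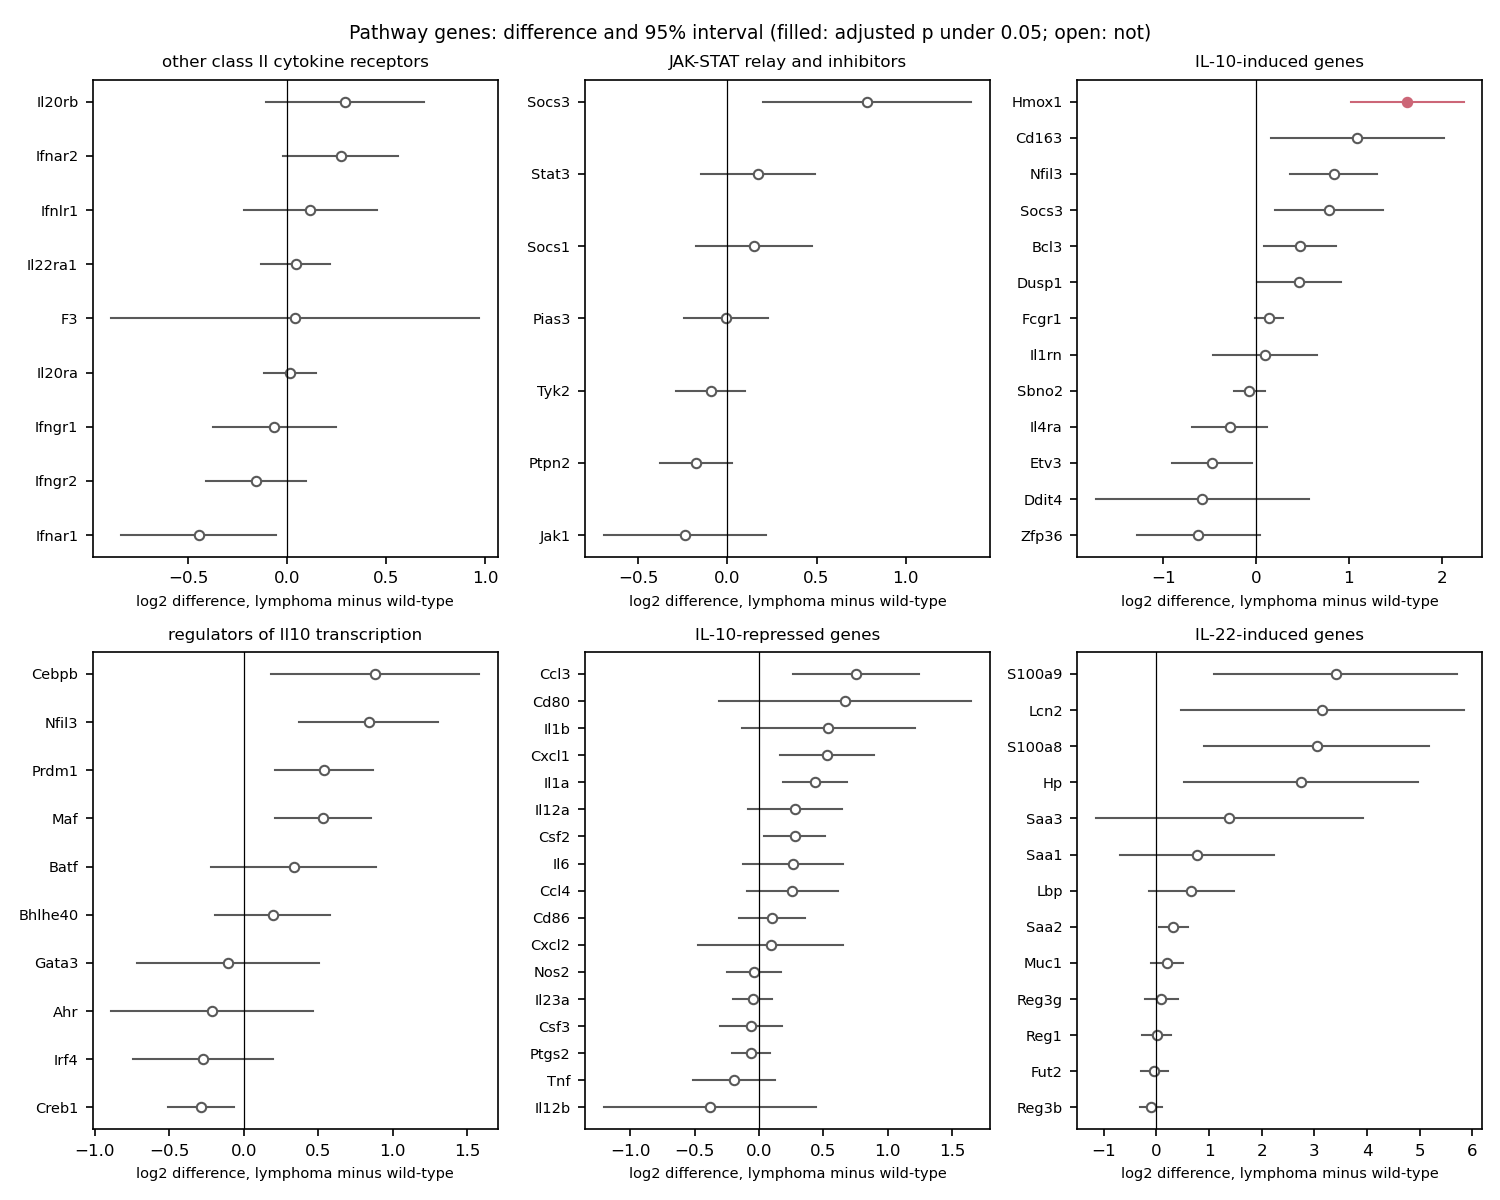
Each of 6 panels shows 1 pathway list on its own axis range, with the log2 difference of lymphoma minus wild-type as a point and its 95% interval as a line; filled points passed a limma adjusted p of 0.05. Hmox1 is the single filled point, and S100a9, Lcn2, S100a8 and Hp have the largest differences, with wide intervals.

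None of 10 measured regulators of Il10 transcription was called by limma (0). By unadjusted p under 0.05, 4 were higher and 1 (Creb1) was lower, and the median difference was 0.27. Maf, which drives Il10 in T cells and macrophages, read 10.30, 10.11, 10.33 and 10.01 in wild-type and 11.15, 10.42, 10.61, 10.79 and 10.62 in the lymphomas. The groups did not overlap, and the difference was 0.53 (SE 0.14, limma adjusted p 0.136). All 6 probe sets of Maf were higher in lymphoma, by 0.12 to 1.03. Cebpb, a factor of myeloid cells, stood at 0.88 (adjusted p 0.241), Nfil3 at 0.84 and Prdm1, the plasma cell regulator that also serves Il10 in T cells, at 0.54 (0.141).

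Cytokines that induce IL-10 or IL-22 did not pass (0 of 8 called by limma). By unadjusted p under 0.05 only Il4 counted, lower and below the dim level on all 9 arrays, and the median difference was 0.19. Il21, from follicular helper T cells, read 6.06 to 6.61 in wild-type and 7.07, 5.81, 7.61, 7.39 and 9.20 in lymphomas 1 to 5 (difference 1.11, limma adjusted p 0.382). It was called higher without lymphomas 1 and 2, a fit that called 601 of all genes. Ebi3, a subunit of IL-27, stood at 0.75 (adjusted p 0.475), and at 0.36 without lymphoma 2, whose value of 11.68 was the highest. Il27 was not analysed here.

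The genes beside the members on the chromosome were described next. In the RefSeq gene order (assembly GRCm38.p6), Il22ra2 lies between the receptor genes Ifngr1 and Il20ra, which differed by -0.066 and 0.015. The sign for Ifngr1 turned without lymphoma 2 (0.032). Next to these, Olig3 stood at -0.26, Tnfaip3, an inhibitor of NF-kB, at 0.18, Slc35d3 at 0.24 and Pex7 at -0.082. Limma called none of the 6 (0), and 0 had an unadjusted p under 0.05.

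Il10 lies in a cluster with Il20 and Il24 on one side, Fcmr (-0.21) beyond them, and the kinase gene Mapkapk2 (0.15), Dyrk3 (0.84) and Eif2d (-0.12) on the other. Il22 lies beyond Mdm1 (-0.36), Rap1b (-0.12) and Nup107 (-0.060) and, past Iltifb, before Ifng (0.88), Dyrk2 (-0.52) and Cand1 (-0.071). Ifng, the interferon of T and NK cells, read 6.42 to 7.04 in wild-type and 7.41, 7.90, 7.55, 6.97 and 8.45 in the lymphomas, with a limma adjusted p of 0.183. Around Il10ra the differences were 0.13 (Tmprss4), -0.74 (Scn4b), -0.56 (Scn2b), -0.078 (Tmprss13), 0.33 (Fxyd6) and -0.27 (Fxyd2). Around Il10rb, in a cluster of receptor genes, they were 0.27 (Ifnar2), -0.45 (Ifnar1), -0.16 (Ifngr2), 0.042 (Olig1), -0.022 (Olig2) and 0.020 (Tmem50b). Limma called 0 of these neighbours. By unadjusted p under 0.05 there were 5, Ifng, Dyrk2, Dyrk3, Scn4b and Ifnar1. Over all genes 14.7% had an unadjusted p under 0.05, so nothing is read from these 5.

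**Figure D4:**
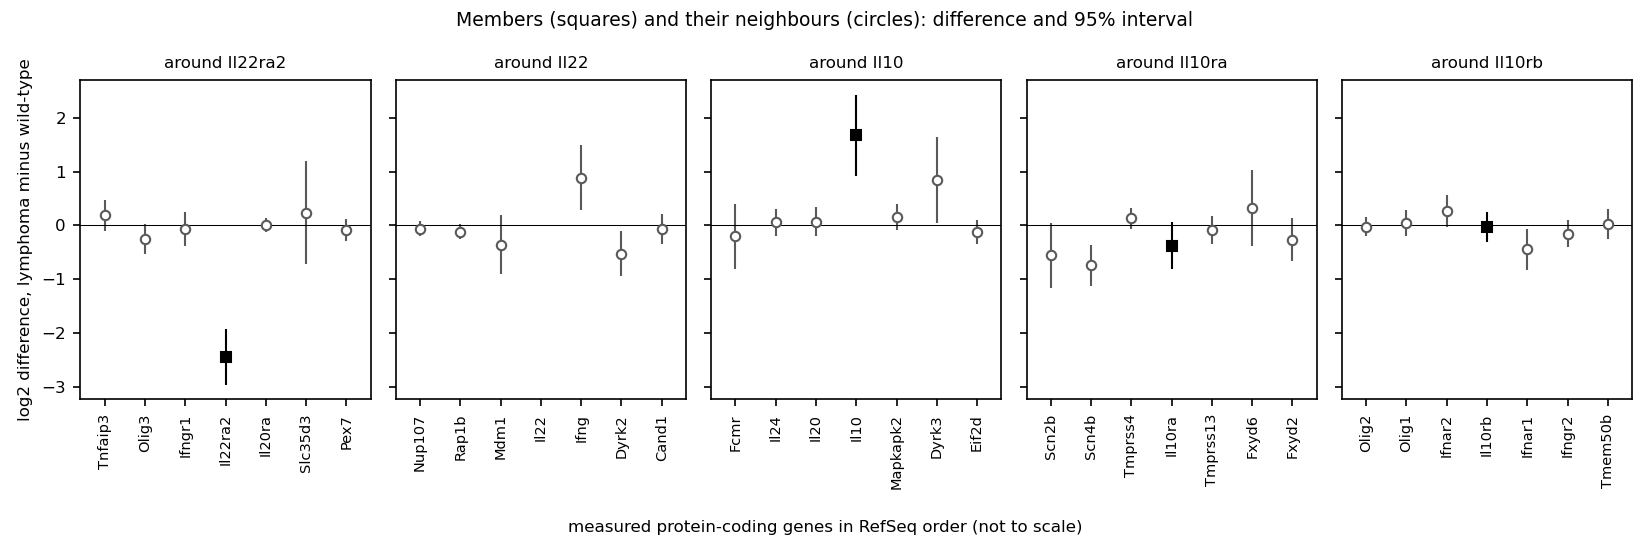
Each panel shows a member (square; for Il10ra and Il10rb the brightest probe set) and the 3 nearest measured protein-coding genes on each side (circles), as log2 difference of lymphoma minus wild-type with its 95% interval; positions follow gene order and are not to scale, and Il22 has no value. Il22ra2 at -2.44 and Il10 at 1.68 have larger differences than the genes beside them, and both were chosen with this contrast known. The interval of Il10 (0.92 to 2.43) overlaps that of its neighbour Dyrk3 (0.037 to 1.65).

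Markers of the cells that make or answer these cytokines were set beside the members. For Il22ra2 these were conventional dendritic cells: limma called 0 of 8 measured markers, and by unadjusted p under 0.05 2 were lower (Zbtb46 at -0.47 and Clec10a at -0.45). Their list level was 8.48 to 8.56 in wild-type and 7.98 to 8.58 in lymphoma, and Xcr1 was the one marker with a mean below the dim level. Itgax (CD11c) differed by -0.11 and the growth factor receptor gene Flt3 by -0.19, with signs that turned without lymphoma 4 (0.0044) and lymphoma 2 (0.0080). Cd209a, a lectin of dendritic cells, stood at -0.62 (0.042 with the 18S ribosomal RNA control level of each array as a covariate). In lymphomas 1 to 5 the list level was 8.52, 7.98, 8.58, 8.01 and 8.28. The part of these cells in the Il22ra2 difference was not tested. Clec4a4 and Clec9a were not analysed here.

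For Il10, markers of macrophages, T cells, B cells and plasma cells were set beside it. The macrophage list level was 9.69 to 9.92 in wild-type and 10.45 to 10.95 in lymphoma. Of 11 markers limma called 6 higher and 1 lower (Marco), and 4 were not called. Over all genes it called 0.407% higher and 0.308% lower. Without wild-type spleen 2 the higher marker calls were 2, and without wild-type spleen 3 or 4 they were 3. Without wild-type spleen 1 or lymphoma 5 they were 4, and the unequal-variance test made 0. They were 3 with the replicate number as a block, 2 with the 18S level as a covariate and 7 with array weights. The lower call was lost with the 18S level, without wild-type spleen 3, without lymphomas 3 and 5 and by the unequal-variance test. The complement genes C1qb, C1qc and C1qa led the rises, at 2.40, 2.34 and 1.93. No macrophage marker was below the dim level, and the part of these cells in the Il10 values was not tested.

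Regulatory and type 1 regulatory T-cell markers had 0 of 7 called by limma (1, Ctla4, by unadjusted p under 0.05) and list levels of 7.92 to 8.03 in wild-type and 7.64 to 8.86 in lymphoma. Ctla4 stood at 0.82 (limma adjusted p 0.172) and Lag3 at 0.66 (0.369). The surface genes used to find IL-10-producing B cells had 1 of 5 lower, Cd1d1 (-0.98, limma adjusted p 0.0449; lost without any wild-type spleen, up to 0.168, or without lymphoma 1, 4 or 5, up to 0.101). Their list level was 10.86 to 10.99 in wild-type and 9.79 to 10.95 in lymphoma, and their part in the Il10 values was not tested. Counted over the whole list, 1 was called lower without lymphoma 1, and 2 with array weights or without lymphomas 1 and 2. With the block, the erythroid, Xist or 18S level, the unequal-variance test or the mean of all probe sets the list had 0. Plasma cell markers had 0 of 6 called, with levels of 9.74 to 9.91 and 9.58 to 10.96, and Sdc1 at 0.67 and Jchain at 0.72.

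The remaining lists described the tissue. All 6 measured B-cell markers and all 6 T-cell markers read above the dim level on every array. The B-cell list level was 12.36 to 12.49 in wild-type and 11.34 to 12.50 in lymphoma (0 of 6 called; Blk at -0.54, Cd22 at -0.52). The T-cell list level was 10.08 to 10.29 and 8.72 to 10.20 (0 of 6; Cd8b1 at -1.69, and Cd8a from 10.23 to 9.23). Erythroid levels were 6.74 to 8.38 and 6.19 to 11.14 (0 of 7; Rhag at 2.36, Alas2 at 2.13). NK and cytotoxic markers stood at 7.89 to 7.97 and 8.33 to 8.89 (1 of 8 called, Gzmk, from 7.17 to 10.17). Markers of type 3 innate lymphoid and Th17 cells, a source of IL-22, read 9.49 to 9.67 and 8.44 to 9.89 (0 of 6; Ccr6 at -0.99, Il7r at -0.42, turning to 0.34 without lymphomas 1 and 2), with Il17a below the dim level. Stroma and endothelium read 9.89 to 10.14 and 9.67 to 10.25 (0 of 5 called, with Pdgfrb at 0.86 and Madcam1 at -0.77). By limma unadjusted p under 0.05, B-cell and T-cell markers had 2 lower each and 0 higher. Higher were 4 NK and cytotoxic, 6 of 9 neutrophil, 2 plasma cell and 1 type 3 innate lymphoid and Th17 markers, with 0 lower. Stroma and endothelium had 1 each way and erythroid markers 0. Over all genes 6.69% were higher and 8% lower at that p.

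**Figure D5:**
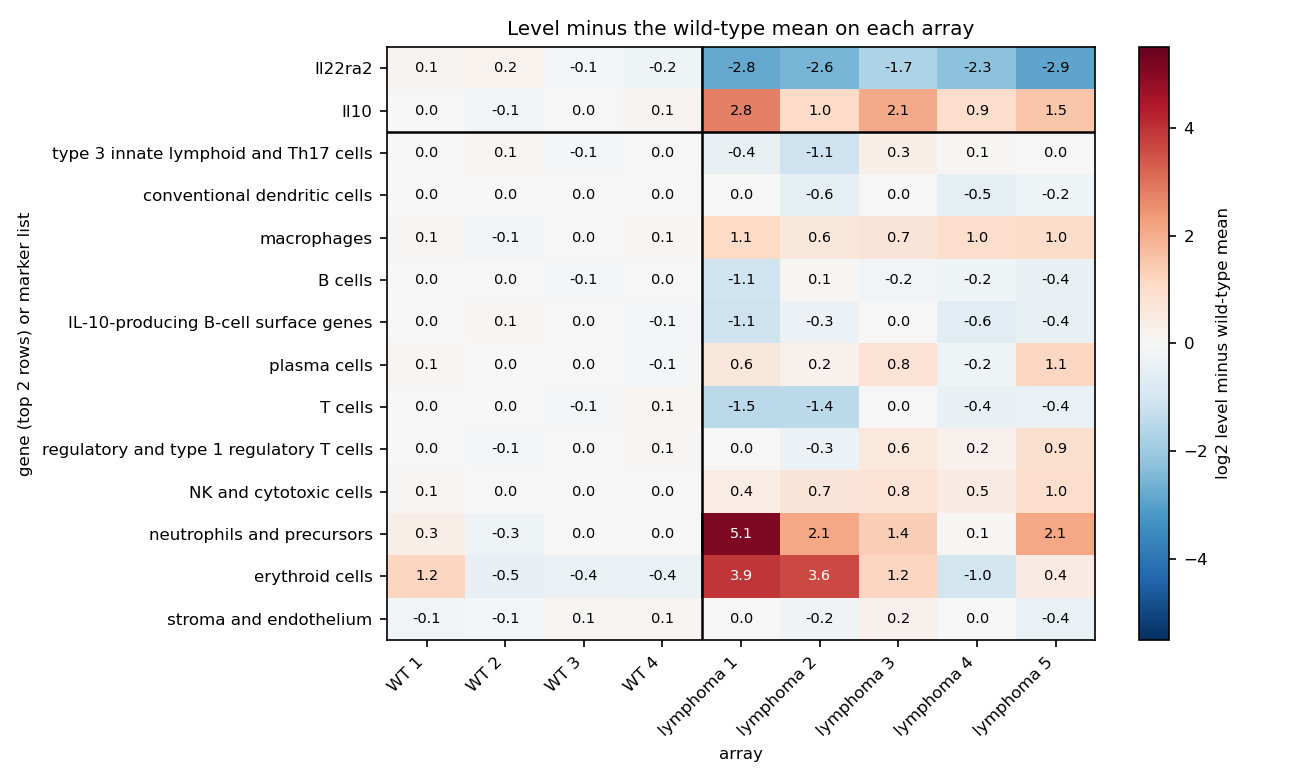
The grid gives, for each array, the log2 level minus the wild-type mean, for Il22ra2 and Il10 (top rows) and for the mean level of each of 12 marker lists (other rows). Il22ra2 is low and Il10 high in all 5 lymphomas, the macrophage row is raised in all 5, the dendritic cell row is lowest in lymphomas 2 and 4, and the neutrophil and erythroid rows vary most among lymphomas.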

How the data were processed

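The deposited values are log2 levels that the authors made with RMA, per the submitters' processing notes; the sources used here do not give the version, settings or probe definitions. They were used as deposited (array medians 6.88 to 6.97). Of 45101 probe sets, 64 controls were left out. Names came from the platform annotation, where 34945 tested probe sets had 1 symbol, 932 several and 9160 none, and RefSeq changed 0 symbols. Each gene was represented by its probe set of highest mean level.

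The groups were compared by limma 3.58.1 under R 4.3.3 (lmFit, eBayes, two-sided, no covariate), fitted on 18193 genes and separately on 45037 probe sets, with Benjamini-Hochberg adjusted p under 0.05. All differences are lymphoma minus wild-type. The number of arrays limits the precision. Members, lists and tests were chosen with earlier results of these data known. Named are all members, 18 fixed genes (14 measured), in each list the called genes (up to 6, or 4 for markers) or else the 2 with the largest difference, the 5 nearest profiles of Il22ra2 and Il10, and the 3 nearest measured neighbours per side; further list genes were added after their values were seen. The scripts were tested on simulated data. Figures used matplotlib 3.10.9 in Python 3.11.15.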

Additional observations from a re-analysis of the deposited data

Results flagged for a closer look

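In 180 groups of arrays (each named gene in each group) 12 had an array set far from the rest by Dixon's criterion, or 6.67%, where chance gives about 5%. Among the members, lymphoma 5 stood at 6.99 on the Il10ra probe set 1437808_x_at, against 6.41 to 6.57 in the other lymphomas. Lymphoma 1 was the array apart for Pdgfc (9.16, others up to 8.25), Lrp1 (10.56, others up to 9.43), Olig1 (5.66) and, on the low side, Tmprss4 (6.42). Lymphoma 5 was apart for Lag3 (8.36, others up to 6.90) and Il24 (5.44), and lymphoma 3 for Adam23 (7.92, others up to 7.20). Among the wild-type spleens, number 1 was apart for Rhag (7.07, others up to 4.48), number 2 for Hmox1 (8.70, the other 3 all at the same deposited value of 8.81), number 3 for Il20 (6.61, others from 7.10) and number 4 for Olig3 (4.96).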

How the results depend on the processing

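The 7 member differences moved by less than 1 pooled SD under all 18 alternatives run for them. That SD is the spread of single arrays, a wide bar for a difference of means, which leaving 1 array out cannot reach. Within it Il10rb 1429959_at lay between -0.61 and -0.22. Il10ra 1448731_at lay between -0.57 and -0.16, and Il10ra 1437808_x_at between -0.42 and -0.16. Il22ra2 lay between -2.64 and -2.08 and Il10 between 1.40 and 2.11; -2.08 and 2.11 came with the 18S level as a covariate, -2.64 without lymphoma 3 and 1.40 without lymphoma 1. Il10rb 1419455_at turned from -0.029 to 0.094 with the erythroid level, 0.12 with the 18S level or without lymphomas 1 and 2, 0.073 with array weights and up to 0.055 with 1 array left out, and lay just above 0 with quantile normalization. Il10ra 1456173_at turned from -0.048 to 0.13 with the erythroid level, 0.080 without lymphomas 1 and 2, 0.029 with array weights and up to 0.033 with 1 array left out. The number of genes called, 130, was 532 with array weights, 0 with the unequal-variance test (2384 at an unadjusted p under 0.05), 7 with the replicate number as a block, 86 with the Xist level, 14 with the 18S level, 601 without lymphomas 1 and 2, 48 without lymphomas 3 and 5, and 10 to 328 with 1 array left out. The 4 wild-type spleens gave 36, 10, 14 and 18 when left out in number order, and lymphomas 5 and 2 gave 34 and 328. Of the pathway genes, 4 were called higher with array weights (Hmox1, Maf, Nfil3 and Socs3). Without lymphomas 1 and 2 there were also 4 (Hmox1, Il21, Maf and Socs3). There were 2 with the mean of all probe sets and 0 with the unequal-variance test, the block, the erythroid or the 18S level. With 1 array left out there were 0 to 2. With the Xist level 1 (Il12b) was called lower. Same-numbered arrays did not deviate together (correlations -0.20 to 0.14), so the numbers were not taken as pairs; with the block the differences were -2.33 for Il22ra2 and 1.71 for Il10. Covariates and arrays to leave out were chosen from earlier results of these data, and the cause of these shifts was not tested.

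These differences changed sign, most of them small, but with the 18S level also those of Ccr6 (-0.99), Ebi3 (0.75), Cd209a (-0.62) and Il7r (-0.42); none was called as reported. With the erythroid level they were Jak1 (0.012), Il7r (0.30), Ifngr1 (0.12), Flt3 (0.020), Slc35d3 (-0.19), Cand1 (0.030), Fxyd6 (-0.13), Olig1 (-0.016), Olig2 (0.038) and Tmem50b (-0.0073). With the 18S level they were Ebi3 (-0.0041), Ccr6 (0.29), Il7r (0.53), Cd209a (0.042), Il20ra (-0.015), Ifngr1 (0.18), Il12b (0.13), Itgax (0.11), Flt3 (0.22), Mapkapk2 (-0.0074), Fxyd6 (-0.16) and Tmem50b (-0.15). With the Xist level they were Il24 (-0.022), Stat3 (-0.0051) and Tmem50b (-0.022), with the block Il24 (-0.013) and Tmem50b (-0.014), and with array weights Ifngr1 (0.055) and Olig1 (-0.0046). Without lymphomas 1 and 2 they were Jak1 (0.016), Il7r (0.34), Ifngr1 (0.090), Il12b (0.048), Flt3 (0.068), Slc35d3 (-0.18), Cand1 (0.039), Fxyd6 (-0.18), Olig1 (-0.0095), Olig2 (0.011) and Tmem50b (-0.0027), and without lymphomas 3 and 5 Il24 (-0.014), Stat3 (-0.0031) and Tmem50b (-0.022). With 1 array left out the ranges that crossed 0 were -0.14 to 0.032 (Ifngr1), -0.044 to 0.089 (Olig1), -0.019 to 0.10 (Il24), -0.061 to 0.084 (Tmem50b), -0.30 to 0.0080 (Flt3), -0.16 to 0.41 (Slc35d3), -0.13 to 0.038 (Cand1), -0.052 to 0.013 (Olig2), -0.26 to 0.0044 (Itgax), -0.069 to 0.13 (Il20) and -0.017 to 0.066 (Il22ra1).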

Other observations

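The probe set filed jointly under Il22 and its near-copy Iltifb (1427624_s_at) belongs to no single gene and entered no comparison by name. It read 3.55, 3.66, 3.51 and 3.72 in the wild-type spleens and 3.67, 3.53, 3.66, 3.66 and 3.47 in lymphomas 1 to 5, below the dim level of 6.18 on all 9 arrays. The groups overlapped, with a difference of -0.013 (SE 0.078). At this level the array cannot show whether either gene was expressed.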
